A study of Mus musculus with 3 samples.

Results

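The genes described here were 10 genes of the MHC class I pathway among 34289 listed features: the classical heavy chains H2-K1 and H2-D1, the nonclassical heavy chains H2-T23, H2-M2, H2-M3 and H2-M5, the light chain B2m, and the peptide-loading genes Tap1, Tap2 and Tapbp. They were chosen by name for their place in the pathway, with earlier results of these data known. All 10 had UMIs (unique molecular identifiers, 1 per captured transcript) in Langerhans cells (LCs) of every library. LCs are the antigen-presenting cells of the epidermis. Cells came from ear epidermis of male mice of the outbred strain Cd1 (CD1). All mice had received Nair, a depilatory cream. The untreated mice received nothing else, a second group was treated with acetone, croton oil (a skin irritant) and olive oil, and the last with multiple punches of a microneedle array. Ears were taken 48 hours after treatment began. Trypsin freed the epidermis, dead cells were depleted and LCs enriched on magnetic beads, and droplet-based 3' RNA libraries were made, 1 per group. The number of animals behind a library is not given in the sources used here, so differences between libraries have no replicate check. Treatment, animal and library cannot be told apart.

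A class I molecule consists of a heavy chain and beta-2 microglobulin, the product of B2m, and displays peptides from inside the cell to CD8 T cells. Peptides cut by the proteasome enter the endoplasmic reticulum through the TAP1 and TAP2 transporter, and tapasin, the product of Tapbp, holds empty class I molecules beside it. Of the nonclassical heavy chains, H2-T23 encodes Qa-1, which binds receptors on natural killer and T cells, and H2-M3 presents peptides with a formylated start. H2-M2 and H2-M5 belong to the same M region of the complex. LCs are known foremost for class II presentation, and for moving to lymph nodes after injury.

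The libraries held 9876 (untreated), 8241 (croton oil) and 6945 (microneedle) barcodes with 127666928, 119360952 and 117178809 UMIs. Between 13 and 32 barcodes were shared by any pair of libraries. LCs were taken as cells with at least 2% of UMIs from Cd74, H2-Aa, H2-Ab1 and H2-Eb1 and at least 2 UMIs of Epcam. This gave 8621, 5912 and 5294 LCs with median depths of 11510, 12571 and 17339 UMIs, in the order untreated, croton oil, microneedle, which is kept below. Cd207 (langerin) is the defining marker that the selection did not use. Its level in LCs was 570.3, 328.1 and 466.1 CPM (UMIs of a gene per 1000000 UMIs summed over the cells). This summed level was lowest after croton oil. The share of LCs with a Cd207 UMI was not computed, so LCs without langerin transcripts may be among them. Within 1 percentage point above the class II threshold lay 268, 278 and 201 LCs. Markers of other cell types were also summed in LCs. The summed level of 7 T cell markers was 4.46, 73.4 and 19.7 CPM, with 6, 1 and 2 of the 7 under 1 CPM. The 8 keratinocyte markers summed to 75.3, 70.5 and 34.5 CPM, and the 8 monocyte and macrophage markers to between 299 and 310 CPM. The neutrophil markers summed to 2659, 2713 and 4055 CPM, with 5, 2 and 2 of the 8 under 1 CPM. Il1r2 made up most of these sums (2498, 2647 and 3955 CPM in LCs) and was no higher in neutrophils (2186 and 2045 CPM in the injured libraries), so the sums do not measure neutrophil RNA. Of the others S100a8 was 0.075, 16.7 and 9.13 CPM and S100a9 0.206, 21.5 and 16.2 CPM in LCs, higher in both injured libraries, while Csf3r was under 1 CPM in each. The part of these other cells' RNA in the results was not tested, except where values are given below.

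In LCs of untreated skin the most abundant of the 10 transcripts was H2-M2, a nonclassical heavy chain, and not a classical one. It had 1425 CPM (exact Poisson 95% interval 1417 to 1432), which placed it 84th of 25660 genes with a UMI. B2m followed at 733 CPM (rank 194), H2-D1 at 397 CPM (rank 394), H2-M5 at 209 CPM (206 to 212; rank 862) and H2-K1 at 186 CPM (183 to 188; rank 979). H2-T23 stood at 67.3 CPM, Tapbp at 64.0, H2-M3 at 58.8, Tap2 at 43.7 and Tap1 at 22.7 CPM. No neighbours in this order had overlapping intervals. A 3' library counts transcript ends, so CPM is not scaled to transcript length. All intervals cover counting error within a library only. In LCs of both injured libraries H2-M2 was still the most abundant, and the order below it differed: H2-D1 (513 CPM) stood above B2m (474 CPM) after croton oil, while B2m (599 CPM) stood above H2-D1 (371 CPM) after microneedling.

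**Figure D1:**
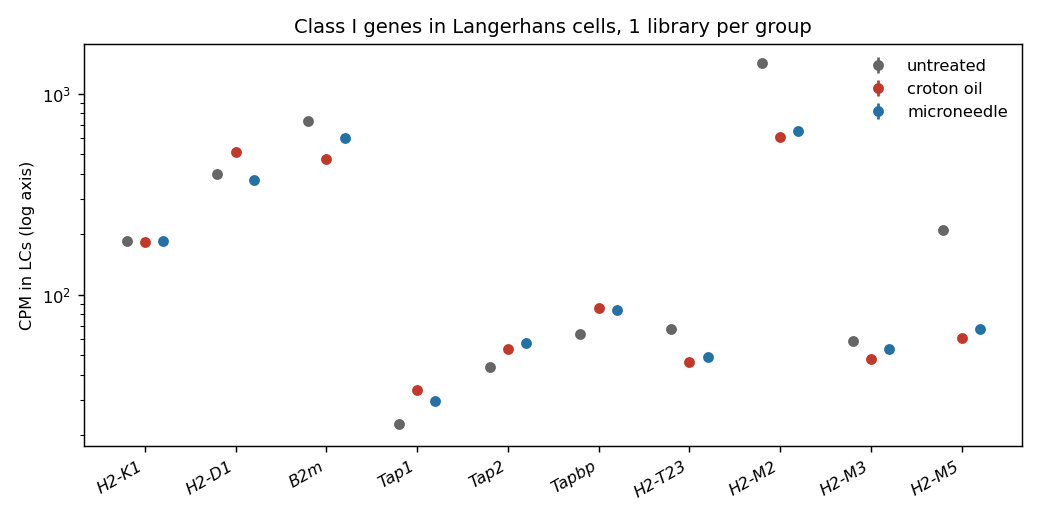
Level of each of the 10 class I genes in LCs, in CPM on a log axis, 1 point per library with exact Poisson 95% intervals, most of them smaller than the points. H2-M2 and H2-M5 stand higher in the untreated library than in both injured ones, while the 3 points of H2-K1 lie between 183 and 186 CPM.

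The upstream sequences of a classical and 3 nonclassical heavy chain genes are shown because these genes differed in level and in response. Each is the 250 bases before the start site in the RefSeq promoter table (build GRCm38.p6), read 5' to 3' on the gene's strand and found at 1 position in GRCm39. These were chr17:34219322-34219571 (minus strand) for H2-K1, chr17:37794446-37794695 (minus) for H2-M2, chr17:37580875-37581124 (plus) for H2-M3 and chr17:37300426-37300675 (minus) for H2-M5. Capitals mark matches, on either strand, to a kappaB-type motif (the longest run of capitals in H2-K1), to GAANNGAAA and to TGACG.
H2-K1: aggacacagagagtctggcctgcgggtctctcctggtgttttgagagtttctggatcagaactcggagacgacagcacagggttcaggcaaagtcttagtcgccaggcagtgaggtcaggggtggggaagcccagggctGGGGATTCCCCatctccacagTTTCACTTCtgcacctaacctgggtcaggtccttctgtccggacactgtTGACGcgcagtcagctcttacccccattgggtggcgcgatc
H2-M2: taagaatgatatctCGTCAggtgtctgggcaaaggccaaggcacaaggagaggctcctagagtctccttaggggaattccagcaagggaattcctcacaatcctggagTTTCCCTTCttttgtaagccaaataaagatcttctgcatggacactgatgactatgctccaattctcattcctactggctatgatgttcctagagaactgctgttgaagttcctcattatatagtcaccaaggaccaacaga
H2-M3: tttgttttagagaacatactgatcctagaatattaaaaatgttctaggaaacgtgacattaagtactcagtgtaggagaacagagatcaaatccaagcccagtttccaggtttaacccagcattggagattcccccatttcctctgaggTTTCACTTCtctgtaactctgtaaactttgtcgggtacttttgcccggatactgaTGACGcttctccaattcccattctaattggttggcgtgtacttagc
H2-M5: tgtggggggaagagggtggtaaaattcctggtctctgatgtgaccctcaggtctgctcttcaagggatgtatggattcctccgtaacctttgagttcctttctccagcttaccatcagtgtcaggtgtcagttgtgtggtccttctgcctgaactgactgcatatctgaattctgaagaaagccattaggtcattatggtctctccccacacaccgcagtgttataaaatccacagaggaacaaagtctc
H2-K1 carried all 3 motifs, H2-M2 and H2-M3 carried GAANNGAAA and TGACG, and H2-M5 none. Of the 9 members with a window in the table (Tap2 had none), 2 held the kappaB-type motif, H2-K1 and H2-D1, against 0.289% of 32851 windows of that length. GAANNGAAA was in 4 of 9 (6.31% of all windows), TGACG in 6 (17.8%) and CCAAT in 8, all but H2-M5 (33.8%). The ISRE-type motif of interferon-response genes, which can overlap GAANNGAAA, was in the windows of B2m and H2-T23 (2.98% of all windows), and TTCNNNGAA in that of H2-M3 (7.02%). GAANNGAAA and TGACG were added after the sequences had been seen. A match is a match of letters in the reference strain only.

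Croton oil and microneedling are an irritant and a mechanical injury, and the design compares each with untreated skin; both comparisons share the untreated library. The clearest difference in LCs was in the 2 M-region heavy chains H2-M2 and H2-M5. H2-M5 had 209 CPM in untreated LCs, 61.0 CPM (59.3 to 62.7) after croton oil and 67.6 CPM (66.0 to 69.3) after microneedling. Its changes on the log2(CPM + 5) scale were -1.70 (-1.74 to -1.65) and -1.56 (-1.60 to -1.52), so that it fell 3.24-fold and 2.95-fold. H2-M2 had 1425, 611 (605 to 616) and 651 (645 to 656) CPM. Its changes were -1.22 (-1.23 to -1.20) and -1.12 (-1.14 to -1.11), and it fell 2.32-fold and 2.18-fold. Both injured libraries thus stood apart from the untreated one in both genes, and close to each other. Among 6338 genes with a mean of at least 20 CPM over the 3 libraries, 51 had a lower change than H2-M5 after croton oil and 12 after microneedling. For H2-M2 these numbers were 167 and 54.

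The other 2 nonclassical heavy chains moved in the same direction by less than the 1.5-fold used as a call. H2-T23, the Qa-1 heavy chain, had 67.3, 46.4 and 49.0 CPM, log2 changes of -0.49 and -0.42. H2-M3 had 58.8, 47.8 and 53.9 CPM, log2 changes of -0.27 and -0.12.

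The classical chains and the light chain behaved differently from H2-M2 and H2-M5 and from each other. H2-K1 had 186, 183 and 185 CPM, and its intervals in the 3 libraries overlapped. H2-D1 had 397, 513 and 371 CPM, so that it was highest after croton oil (log2 change 0.36, 0.35 to 0.38) and slightly below the untreated level after microneedling (-0.10, -0.12 to -0.08). B2m had 733, 474 and 599 CPM. It fell 1.54-fold after croton oil (log2 change -0.62, -0.64 to -0.61), and its change after microneedling was -0.29. The fall of B2m after croton oil was just past 1.5-fold, and with TMM scaling it was -0.53, short of it.

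The 3 loading genes were all somewhat higher in both injured libraries, none by 1.5-fold. Tap1 had 22.7, 33.6 and 29.6 CPM, log2 changes of 0.48 (0.41 to 0.55) and 0.32 (0.26 to 0.39). Tap2 had 43.7, 53.6 and 57.5 CPM, changes of 0.27 and 0.36. Tapbp had 64.0, 85.8 and 84.4 CPM, changes of 0.40 and 0.37. For each of the 3, the untreated library was the lowest.

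By the 1.5-fold call, 3 of 10 members were lower in croton oil than in untreated LCs (B2m, H2-M2 and H2-M5), against 14.8% of all genes compared, and none was higher, against 14.7%. With TMM scaling 2 were lower, and the split of all genes moved from 932 higher and 937 lower to 1144 and 735. In microneedle LCs 2 of 10 were lower, H2-M2 and H2-M5, against 5.29% of all genes, and none was higher, against 8.9%. At 2-fold, H2-M2 and H2-M5 were the members lower in both comparisons (4.48% of all genes after croton oil, 1.28% after microneedling), and none was higher (5.14% and 3.74%). The median change of the 10 members was -0.15 and -0.11, and that of all genes -0.02 and 0.04. These counts carry no test, since each group is 1 library. The members were also chosen with earlier results of these data known, which limits the reading of these and later member counts.

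Croton oil and microneedle LCs differed from each other in no member by 1.5-fold, beside 3.96% of all genes higher after croton oil and 6.6% higher after microneedling. At 2-fold these shares were 1.23% and 0.994%, again with no member. The largest differences were those of H2-D1 (0.46, 0.44 to 0.48, higher after croton oil) and B2m (-0.34, lower after croton oil). The other 8 members differed by 0.16 or less in either direction. With TMM scaling H2-D1 passed 1.5-fold at 0.60, and the split of all genes moved from 251 higher and 418 lower to 464 and 247.

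**Figure D2:**
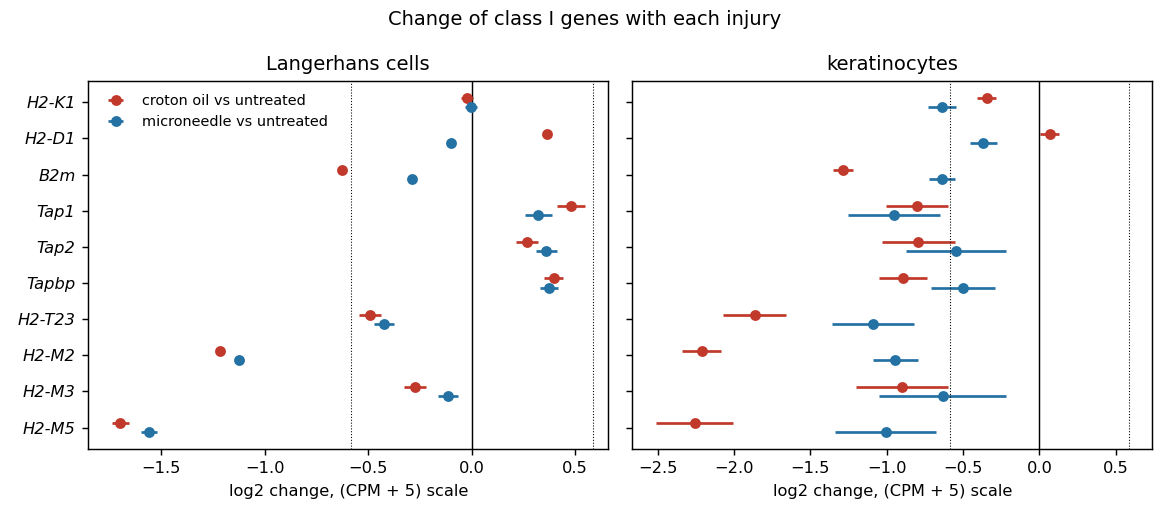
Log2 change of each member against the untreated library in LCs (left) and keratinocytes (right) on the log2(CPM + 5) scale, with 95% intervals from counting error; dotted lines mark 1.5-fold. In LCs H2-M2 and H2-M5 lie beyond the dotted line in both comparisons. Tap1, Tap2 and Tapbp lie above 0 in LCs and below 0 in keratinocytes. H2-M3 in keratinocytes is drawn but was under the minimum level for a comparison.

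The fall of H2-M2 was seen in the median LC and was not that of a small group of cells. With every cell thinned to 3000 UMIs, 8520, 5880 and 5235 LCs remained, and 101, 32 and 59 shallower ones were left out. A UMI of H2-M2 was found in 94.2% (exact binomial 95% interval 93.7 to 94.7) of untreated LCs, 61.7% (60.4 to 62.9) after croton oil and 72.4% (71.2 to 73.6) after microneedling. The unthinned shares were 99.5%, 85.3% and 95.6%. The median cell had 4, 1 and 1 H2-M2 UMIs, and the cell at the 90th percentile 8, 5 and 5. After croton oil 38.3% of thinned LCs had no H2-M2 UMI, while 0.884% had 12 or more. Whether the LCs without H2-M2 were a separate group of cells was not tested. Keratinocytes, whose H2-M2 is set beside LC genes below, had one in 68 of 170, 20 of 191 and 15 of 74 cells at the same depth, with 9, 19 and 17 shallower cells left out. Neutrophils had one in 7 of 108 cells after croton oil and 5 of 255 after microneedling, with 83 and 111 shallower cells left out. The LC shares lay far above those of these other cells in each library.

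H2-M5 was detected in fewer cells at this depth, in 44.3% (43.2 to 45.4) of untreated LCs, 13.8% (12.9 to 14.7) after croton oil and 17.5% (16.5 to 18.6) after microneedling. Keratinocytes gave 14.7%, 0 of 191 cells (exact upper bound 1.91%) and 2.70%. H2-K1 was detected in 41.3%, 38.9% and 38.1% of LCs, B2m in 87.7%, 73.2% and 78.5%, and H2-D1 in 69.2%, 72.2% and 64.0%. Thus a gene with a like share to H2-M5 in untreated LCs, H2-K1, kept most of that share in the injured libraries and H2-M5 did not. Across single cells the members' UMIs were only weakly related, with a Spearman rho between H2-M2 and H2-M5 of 0.09, 0.20 and 0.11 over 8520, 5880 and 5235 LCs at 3000 UMIs, which at such sparse counts is a description and no finding.

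**Figure D3:**
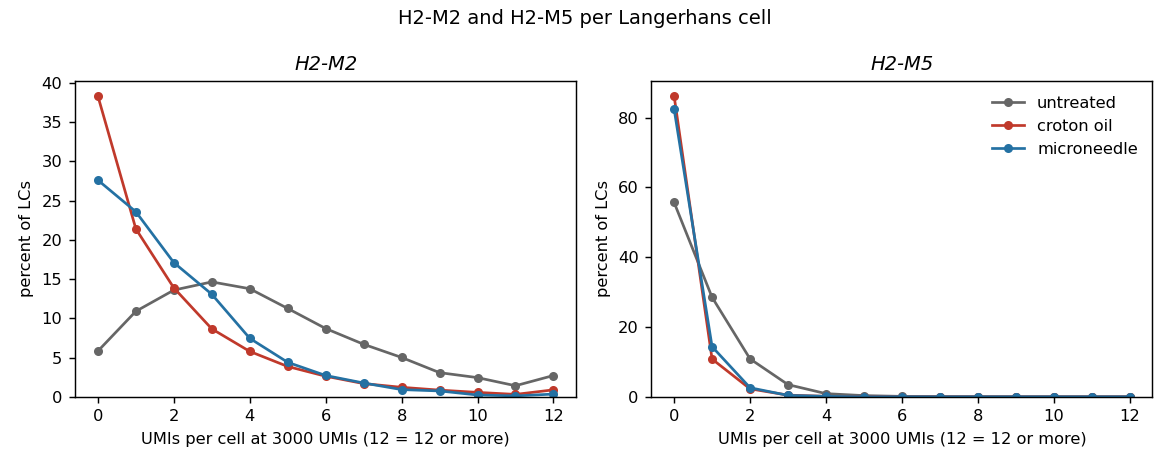
Share of LCs (percent) with a given number of H2-M2 (left) and H2-M5 (right) UMIs after thinning each cell to 3000 UMIs, 1 line per library. For H2-M2 the untreated curve peaks at 3 UMIs, while the croton oil and microneedle curves are highest at 0.

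The other genes of the pathway were taken from lists of named genes. Of 24 other heavy chain genes listed, only H2-K2 and H2-Q7 reached a mean of 20 CPM in LCs. H2-K2 had 82.3, 36.3 and 59.6 CPM and fell by 1.08 on the log2 scale after croton oil, with a change of -0.43 after microneedling. H2-Q7 had 33.5, 21.2 and 34.5 CPM. The H2-K2 and H2-Q7 transcripts share stretches near the 3' end with H2-K1, as do some other heavy chains: 5.09% of 90-base windows in the last 500 bases of annotated H2-K1 coding transcripts occur in another gene, 0.714% for H2-D1, 6.82% for H2-T23 and 0% for the other 7 members. Reads of such windows cannot be assigned to 1 gene, and the outbred mice may carry alleles that differ from the reference strain, most of all in the classical chains; the levels of H2-K1, H2-D1, H2-T23 and H2-K2 are uncertain to that extent.

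Several proteasome genes passed 1.5-fold upward in LCs, a size of change that no member reached upward. Of 5 immunoproteasome genes, which encode the subunits and activator that favour class I peptides, 3 were at least 1.5-fold higher after croton oil and 2 after microneedling, none was lower, and the medians were 0.82 and 0.51. Psmb10 had 13.7, 40.7 and 32.0 CPM and rose by 1.29 and 0.98. Psme2, a subunit of the PA28 activator, had 42.8, 90.8 and 85.5 CPM and rose by 1.00 and 0.92. Psmb8 had 103, 186 and 148 CPM and rose by 0.82 after croton oil, with a change of 0.51 after microneedling. Psmb9, whose gene lies next to Tap1, had 65.7, 74.4 and 70.2 CPM, changes of 0.17 and 0.09. The 3 constitutive subunits that these replace gave 2 and 1 higher genes and medians of 0.90 and 0.53. Psmb5 had 72.2, 156 and 117 CPM and rose by 1.06 and 0.66. The 2 proteasome lists therefore gave like counts and medians, beside a background of 14.7% and 8.9% of genes higher.

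Among 5 loading and trimming genes, 4 could be compared. Calr, the endoplasmic reticulum chaperone calreticulin, had 145, 242 and 216 CPM and rose by 0.72 after croton oil, with 0.56 after microneedling. Canx, Pdia3 and Erap1, which fold heavy chains, bridge tapasin and trim peptides, had changes between -0.31 and 0.16 in both comparisons. Of 12 regulators, 8 could be compared. After croton oil Ifnar2 (0.84), Socs1 (0.69) and Ifngr1 (0.68) rose and Irf2 (-0.59) fell, beside 14.7% of all genes higher and 14.8% lower. With TMM scaling or median-of-ratios factors no regulator was lower, so the call of Irf2 was lost. After microneedling no regulator passed 1.5-fold, beside 8.9% and 5.29% of all genes. Irf1, an activator of class I genes, had 63.0, 62.1 and 75.2 CPM. Nlrc5, the class I transactivator, had 13.1, 11.5 and 18.9 CPM and was under the minimum level for a comparison. Of 15 interferon-stimulated genes 3 could be compared, and Isg15 and Bst2 were higher in each comparison, beside 14.7% and 8.9% of all genes. Isg15 had 6.10, 19.8 and 36.3 CPM and reached the minimum only through the microneedle library, so its call is a description. Bst2 had 17.0, 34.7 and 53.2 CPM. The third, Stat2, had 68.8, 44.2 and 75.5 CPM, changes of -0.58 and 0.12. Irf7, listed at 3.32, 8.20 and 29.7 CPM, was under the minimum.

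Among LCs of the injured libraries, the classical chains were higher in those with Ccr7 and Fscn1 transcripts than in those without. The pair encodes a chemokine receptor and an actin-bundling protein of migrating dendritic cells. After croton oil 135 LCs had at least 3 UMIs of the pair and 5493 had none. H2-K1 had 633 CPM (599 to 668) in the first and 169 CPM (166 to 172) in the second, a log2 difference of 1.87. H2-D1 had 1032 and 497 CPM, B2m 765 and 465 CPM, Tap1 88.7 and 31.7 CPM and Tap2 136 and 50.9 CPM. After microneedling the numbers of cells were 25 and 5161. H2-K1 had 679 and 182 CPM, H2-D1 971 and 367 CPM, B2m 876 and 599 CPM, Tap1 70.7 and 29.3 CPM and Tap2 160 and 56.7 CPM. Tapbp differed less after croton oil, with 103 and 85.2 CPM, and had 152 and 83.8 CPM after microneedling. The share of all genes that were higher in cells with the pair was not computed, so these levels are a description of the members.

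The nonclassical chains were not uniform in these cells. H2-M2 was higher in LCs with the pair (1069 against 593 CPM after croton oil and 1062 against 648 CPM after microneedling), still below the untreated level of 1425 CPM. H2-M5 was lower, at 6.68 CPM (3.65 to 11.2) against 63.3 CPM after croton oil and 17.2 against 68.1 CPM after microneedling. H2-M3 had 34.3 against 47.8 CPM and 56.9 against 53.8 CPM. H2-T23 had 45.3 against 46.4 CPM and 55.2 against 49.0 CPM. H2-M2 and H2-M5, which fell together over all LCs, thus lay on opposite sides in the 135 and 25 LCs with the pair.

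Most cells with the pair were not LCs by the class II threshold and belonged to no class, 657 after croton oil and 153 after microneedling. Cd74 was 4331 CPM there against 22311 CPM in croton oil LCs without the pair, and Cd207 138 against 315 CPM. Their H2-K1 (658 and 867 CPM), H2-D1 (932 and 1133 CPM) and B2m (720 and 947 CPM) were near those of the LCs with the pair. H2-M2 had 205 and 229 CPM in them, below LCs without the pair and so on the same side as H2-M5. H2-M3 had 9.75 and 28.2 CPM in them, and H2-M5 1.24 and 1.59 CPM. In the untreated library only 13 LCs and 8 unclassed cells had the pair, too few for a level. When the unclassed cells with the pair were counted as LCs, an alternative chosen after the data had been seen, the change of H2-K1 in croton oil was 0.32 in place of -0.02. Tap1 then passed 1.5-fold at 0.64. H2-M2 and H2-M5 were then -1.32 and -1.84. In LCs with no UMI of either gene, the change of H2-K1 was -0.12.

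**Figure D4:**
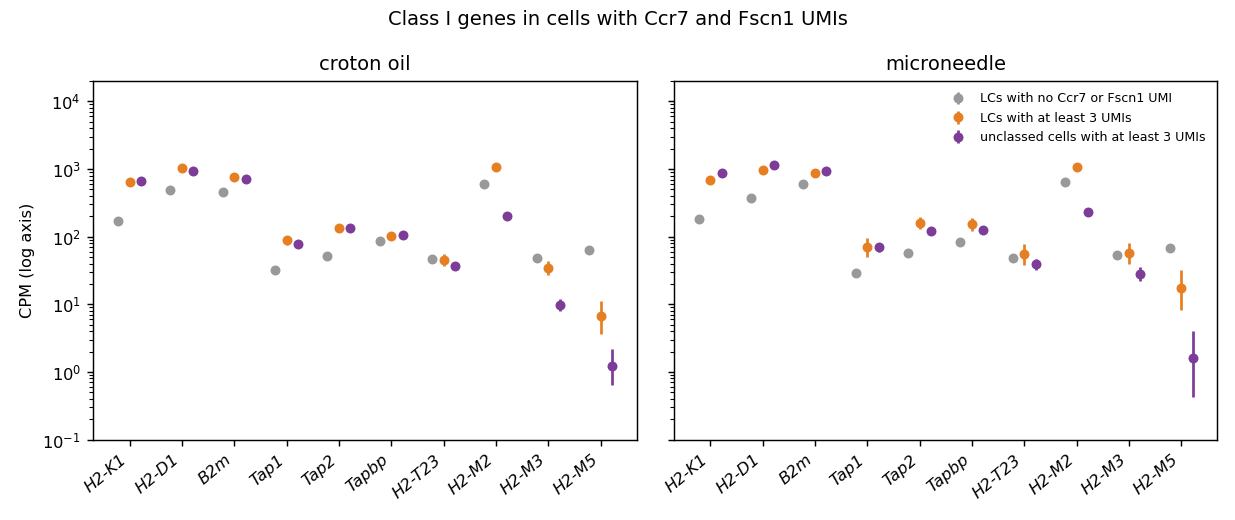
Level (CPM, log axis) of the 10 members in LCs with no Ccr7 or Fscn1 UMI, LCs with at least 3 UMIs of the pair and unclassed cells with at least 3 UMIs, in the croton oil (left) and microneedle (right) libraries, with exact Poisson 95% intervals. H2-K1, H2-D1, B2m, Tap1 and Tap2 are higher in both groups with the pair, and H2-M5 is lower in both.

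Proliferation went with small differences. LCs with at least 3 UMIs of the cell cycle genes Mki67 and Top2a numbered 755, 346 and 876. Their H2-K1 was within 0.10 on the log2 scale of that in LCs with none in every library, and their H2-M5 was 170 against 222 CPM in the untreated and 45.0 against 67.9 CPM in the croton oil library. Their H2-M2 was 1281 against 1456, 622 against 614 and 705 against 627 CPM, lower in the untreated and higher in the microneedle library. LCs with at least 2 UMIs of C1qa, C1qb and C1qc, which encode the first component of complement, numbered 1513 in the untreated library, and their H2-M2 (1447 CPM) and H2-M5 (203 CPM) stood beside 1415 and 210 CPM in LCs with none. In the microneedle library 4555 LCs had such UMIs and 336 had none. H2-M5 was 64.8 CPM in the first and 91.6 CPM in the second, H2-M2 648 and 717 CPM, and H2-K1 190 and 155 CPM. After croton oil almost all LCs carried C1q UMIs and only 123 had none. There H2-K1 was 180 and 274 CPM, H2-M2 604 and 764 CPM, and H2-M5 60.9 and 50.2 CPM. Fscn1 moved with this split, at 10.24 and 271 CPM after croton oil and 4.46 and 7.95 CPM after microneedling, and its part in these levels was not tested.

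Keratinocytes, taken as cells with at least 0.5% of UMIs from Krt14, Krt5, Krt1 and Krt10 and under 2% class II, numbered 179, 210 and 91. They were deep, with median totals of 30372, 51570 and 27371 UMIs. In untreated skin they held more H2-K1 than LCs (615 CPM, 594 to 635, against 186 CPM), more H2-D1 (562 against 397 CPM), more Tap1 (53.5 against 22.7 CPM) and Tapbp (100.5 against 64.0 CPM), and slightly less B2m (689 against 733 CPM). H2-K1 stood 3.31-fold above the LC level in the untreated, 2.64-fold in the croton oil and 2.12-fold in the microneedle library.

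B2m and H2-T23 were lower in keratinocytes after both injuries. B2m had 689, 280 (270 to 290) and 441 (419 to 464) CPM, and fell, with log2 changes of -1.29 and -0.64. H2-T23 had 74.8, 16.9 (14.5 to 19.5) and 32.5 (26.6 to 39.3) CPM, and fell, with log2 changes of -1.87 and -1.09. Tap1 had 53.5, 28.6 and 25.2 CPM and fell, with log2 changes of -0.80 and -0.95. Tap2 had 33.4, 17.2 and 21.3 CPM, fell by 0.79 after croton oil and had a change of -0.55 after microneedling. With cells thinned to 3000 UMIs Tap2 turned direction, to 0.26 after croton oil and 0.77 after microneedling, from few UMIs. Tapbp had 100.5, 51.9 and 69.6 CPM, fell by 0.89 after croton oil and had a change of -0.50 after microneedling. H2-K1 had 615, 482 and 393 CPM, a change of -0.35 after croton oil and a fall of 0.64 after microneedling. With thinned cells its levels were 520, 529 and 419 CPM. The change of H2-K1 after microneedling was then -0.31, short of 1.5-fold. H2-D1 had 562, 589 and 434 CPM, changes of 0.07 and -0.37. With thinned cells these were 0.62, past 1.5-fold, and 0.07, and the change of B2m after microneedling was -0.57, short of it.

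The keratinocytes of the 3 libraries were not alike in stage. Cells with more UMIs of the basal keratins Krt14 and Krt5 than of the suprabasal Krt1 and Krt10 were 84 of 179, 187 of 210 and 67 of 91. Within these basal-keratin cells B2m had 694, 274 and 402 CPM and H2-T23 72.0, 17.0 and 29.0 CPM, differences about as large as over all keratinocytes. H2-M2, set beside LC genes below, was 467, 49.3 and 130 CPM in the basal-keratin cells. The part of LC RNA in their B2m and H2-T23 levels was not tested. Tapbp had 60.4, 52.1 and 74.0 CPM there, and its change turned from -0.89 to -0.20 after croton oil and from -0.50 to 0.27 after microneedling. Tap1 then changed by -0.35 and -0.50, Tap2 after croton oil by -0.50 and H2-K1 after microneedling by -0.46, and none of these passed 1.5-fold any longer. Apart from H2-M2 and H2-M5, the members that kept a call there were B2m and H2-T23. In untreated cells with more Krt1 and Krt10, Tapbp was 130 CPM and Tap1 65.2 CPM. This split was chosen after the data had been seen.

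H2-M2 and H2-M5 were low in keratinocytes beside LCs, as were the LC genes Cd207 and Cd74. H2-M2 had 262, 52.5 and 134 CPM in keratinocytes, which is 0.184, 0.0861 and 0.206 of the level in the LCs of the same library. The same ratio was 0.155, 0.0637 and 0.189 for Cd207 and 0.156, 0.0790 and 0.133 for Cd74, genes that define LCs. H2-M5 gave 0.1996, 0.0780 and 0.270 (41.7, 4.76 and 18.2 CPM). Both heavy chains had ratios near or above those of the marker genes, H2-M5 after microneedling the most. The part of LC RNA in these UMIs was not tested, and no change in keratinocytes is read from them. H2-M3 had 14.1, 5.23 and 7.29 CPM, under the minimum of 20 CPM on average, so that 9 of 10 members were compared.

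By the 1.5-fold call 7 of 9 members were lower in croton oil keratinocytes, H2-M2 and H2-M5 among them, against 23.4% of 6965 genes compared, and 6 of 9 in microneedle keratinocytes, again with both, against 11.4%. None was higher, against 22.9% and 18.6% of genes. At 2-fold, 4 (11.9% of genes) and 2 (5.33%) were lower and none was higher (11.7% and 6.4%). The medians of the 9 were -0.89 and -0.64, beside -0.02 and 0.12 for all genes. H2-M5 and Tap2 reached the minimum level only through the untreated library, so that their lower levels are not counted as support. Without H2-M2 and H2-M5, from which no keratinocyte change is read, 5 of 7 and 4 of 7 members were lower, with medians of -0.80 and -0.64. Without Tap2 as well, 4 of 6 were lower after each injury. In basal-keratin cells 2 of these 7 were lower after each injury, and 3 with the mean over cells of CPM per cell. With TMM scaling 3 of the 7 were lower after croton oil and 6 after microneedling, with medians of -0.57 and -0.82. TMM scaling moved the median of all genes by over 0.1 in both comparisons, to 0.24 and -0.04. Under it 5 and 8 of 9 members were lower, and the split of all genes moved from 1598 higher and 1633 lower to 2314 and 1052 after croton oil, and from 1297 and 794 to 831 and 1142 after microneedling. With median-of-ratios factors 7 and 8 of 9 were lower, and the microneedle split was 971 and 1023. B2m and H2-T23 were lower under each scaling. Whether LCs and keratinocytes differed in their response was not tested.

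Genes that regulate class I moved in both directions in keratinocytes. Nlrc5 had 85.0, 28.0 and 63.2 CPM and fell by 1.45 after croton oil, with -0.40 after microneedling. Irf1 had 50.9, 120 and 127 CPM and rose by 1.16 and 1.24. Of 9 regulators compared, 5 were higher and 2 lower after croton oil, and 4 higher and none lower after microneedling. Of all genes, 22.9% were higher and 23.4% lower after croton oil, and 18.6% and 11.4% after microneedling. Of the higher regulators, 2 reached the minimum level only through the croton oil library, as did the immunoproteasome gene Psmb10 (13.6, 33.5 and 16.4 CPM). With TMM scaling 5 regulators were higher and 1 lower after croton oil, and 3 higher and none lower after microneedling. Of 5 immunoproteasome genes 2 were higher and 1 lower after croton oil, and none higher and 1 lower after microneedling, the lower one being Psmb9 in both (51.2, 30.8 and 25.2 CPM). With TMM scaling 3 were higher and none was lower after croton oil, so that this call of Psmb9 was lost. Of 4 loading and trimming genes compared, 2 were higher and none lower after each injury. These were Calr (160, 442 and 331 CPM) and Pdia3 (167, 336 and 284 CPM), opposite in direction to Tap1, Tap2 and Tapbp. With TMM scaling 3 of the 4 were higher after croton oil and 1 after microneedling. All 3 constitutive proteasome genes were higher after croton oil and none after microneedling.

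The other immune cells showed a different balance of heavy chains. Neutrophils were present only in the injured libraries (191 and 366 cells, median depths 3229 and 3447 UMIs). H2-D1 led after croton oil, at 1182 CPM (1104 to 1264) after croton oil and was 877 CPM (834 to 922) after microneedling, beside B2m at 895 CPM (852 to 941). This was 2.30-fold and 2.37-fold the level in LCs of the same library. Their H2-K1 was 184 and 293 CPM, their B2m 564 and 895 CPM and their H2-T23 21.9 and 63.0 CPM. Monocytes and macrophages formed a group of 191 cells in the microneedle library and of 1 and 3 cells in the others. They had the highest B2m of the cell classes compared, 2133 CPM (2065 to 2204), 3.56-fold the LC level, together with the highest Tapbp (326 CPM) and Tap1 (79.6 CPM). T cells could be described only after croton oil (131 cells), with H2-D1 at 535, B2m at 295 and H2-K1 at 218 CPM.

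H2-M2 and H2-M5 were below the LC level in these cells, and near 0 in macrophages. In macrophages, which were chosen to have no Cd207 UMI, H2-M2 had 2.33 CPM (0.634 to 5.95, from 4 UMIs) and H2-M5 0.581 CPM from 1 UMI. Neutrophils had 15.1 and 14.3 CPM of H2-M2, beside 8.23 and 20.1 CPM of Cd207, and T cells 24.8 CPM of H2-M2 beside 13.5 CPM of Cd207. The LC level of H2-M2 was 611 and 651 CPM in the same libraries. H2-M3, in contrast, was as high in macrophages (48.8 CPM, 38.9 to 60.5) as in LCs of the microneedle library (53.9 CPM), and 5.48 and 6.30 CPM in neutrophils.

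**Figure D5:**
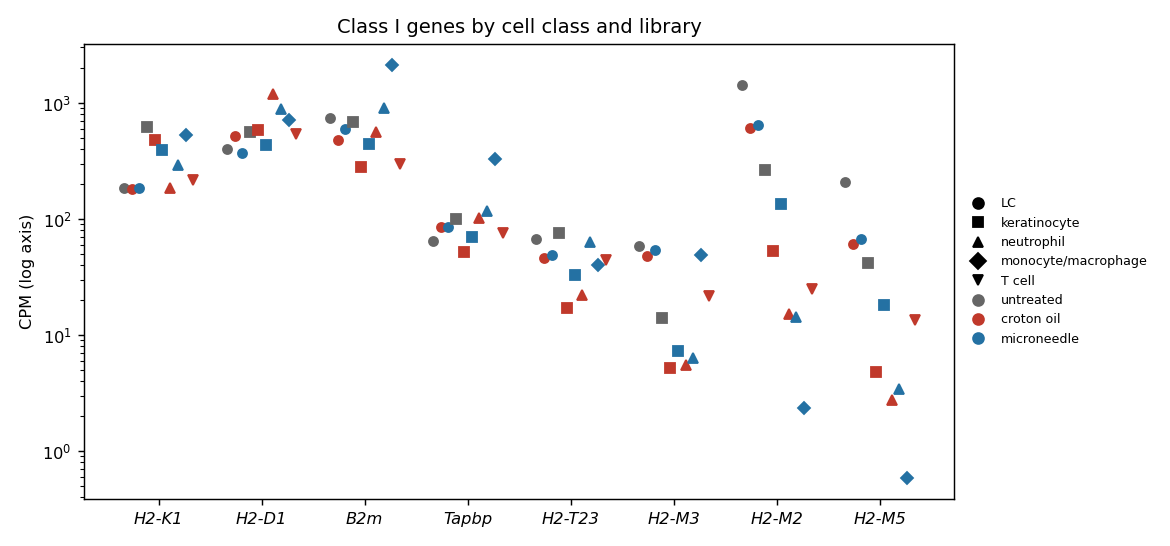
Level of 8 members (CPM, log axis) in each cell class and library with at least 20 cells; the marker shape gives the class and the colour the library. H2-K1, H2-D1 and B2m lie between 183 and 2133 CPM in every class, whereas H2-M2 and H2-M5 span from the LCs at the top to the macrophages at the bottom.

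The order of cell classes thus differed between the classical and the M-region chains. For B2m it ran in the microneedle library from macrophages (2133 CPM) over neutrophils (895 CPM) and LCs (599 CPM) to keratinocytes (441 CPM), with no overlap of intervals between neighbours. For H2-D1 it ran from neutrophils (877 CPM) over macrophages (712 CPM) and keratinocytes (434 CPM) to LCs (371 CPM), again with no overlap. For H2-K1 it ran from macrophages (526 CPM) over keratinocytes (393 CPM) and neutrophils (293 CPM) to LCs (185 CPM).

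Across the 10 groups of cell class and library with at least 50 cells, the genes whose log2(CPM + 5) was most like that of H2-M2 among 7096 genes were Cacnb2 (Pearson r = 0.986), Chst10 (0.985), Stxbp5l (0.984), Tbc1d4 (0.982) and Tspan8 (0.981). H2-M5 gave 0.963. Cacnb2 had 1330, 885 and 645 CPM in LCs. For the mean of H2-K1, H2-D1 and B2m they were Flrt2 (0.962), Cept1 (0.936), Slc37a2 (0.935), Gas7 (0.932) and Hal (0.925). Of these 5 only Cept1 was above 10 CPM in LCs, so that the likeness rested on the other cell classes. The groups share libraries and LC background, so these values describe these 10 groups only.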

How the data were processed

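The deposited values were counts of UMIs per gene and cell, which the authors made with Cell Ranger (version 8.0.0 in the file headers) on GRCm39, per the submitters' processing notes. They were not normalized. Cells with at least 500 genes and at most 10% mitochondrial UMIs were kept, and the highest Scrublet scores (scanpy 1.11.5) were removed at 0.8% per 1000 cells, 773, 532 and 376 cells, leaving 9054, 7626 and 6479. LCs and keratinocytes were chosen as stated above. From the remaining cells, neutrophils had at least 1% of UMIs from S100a8 and S100a9 and 2 from Csf3r, Cxcr2 and Retnlg. T cells had at least 2 UMIs of Cd3 chains. Monocytes and macrophages had at least 3 of 6 marker genes, 2 UMIs of Lyz2, at most 1 of Epcam and none of Cd207. Cells that met the LC and the keratinocyte rule were left out (30, 10 and 1), and 222, 1169 and 520 belonged to no class.

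UMIs were summed per class and library and given as CPM. Changes were log2((CPM + 5)/(CPM + 5)) for genes with a mean of at least 20 CPM, and a call was 1.5-fold. No test was made with 1 library per group. The calculation was tested on simulated data. Genes named were the 10 members, genes of the lists and, per pattern, the 5 most alike. The members and lists were chosen with earlier results of these data known. Alternatives numbered 14, with 2 added after the data had been seen. They included TMM factors from edgeR 4.0.16 in R 4.3.3. Python 3.11.15, numpy 2.4.6, scipy 1.17.1 and pandas 2.3.3 were used. Sequences and gene positions came from RefSeq and GENCODE tables.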

Additional observations from a re-analysis of the deposited data

Results flagged for a closer look

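The 3 loading genes had changes of opposite sign in LCs and keratinocytes under the same injury, with counting intervals that excluded 0 on both sides; with 1 library per group the difference was not tested. Of the 5321 genes compared in both cell classes, 20.4% after croton oil and 19.9% after microneedling had such opposite signs, against 3 of 9 members, so nothing particular to the members is read from this. Tap2 reached the minimum level in keratinocytes only through the untreated library, where it was high, and its values are a description. The LC change minus the keratinocyte change after croton oil was 1.28 on the log2 scale for Tap1, 1.06 for Tap2 and 1.29 for Tapbp. After microneedling it was 1.28 for Tap1, 0.91 for Tap2 and 0.87 for Tapbp. The keratinocytes of the untreated library held fewer basal-keratin cells (84 of 179, against 187 of 210 and 67 of 91), and within basal-keratin cells the keratinocyte change of Tapbp was -0.20 and 0.27 and that of Tap2 -0.50 and -0.30. With cells thinned to 3000 UMIs Tapbp was -0.70 and -1.01 and Tap2 0.26 and 0.77. Tap1 was lower in keratinocytes under both (-0.35 and -0.50 in basal-keratin cells, -0.76 and -1.74 in thinned cells).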

How the results depend on the processing

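No paired analysis was possible because each group is 1 library. Of the single-gene changes recomputed under the alternatives, 427 stayed within their counting interval and 190 moved beyond it. In 1 case a change of at least 1.5-fold turned direction: Tap2 in croton oil against untreated keratinocytes, 0.26 with cells thinned to 3000 UMIs. At that depth 10 of 191 croton oil and 7 of 170 untreated cells had a Tap2 UMI. Before thinning there were 184 and 190 UMIs in all. The counts of members at least 1.5-fold higher, 0 otherwise, became 1 in croton oil against microneedle LCs with TMM scaling, 1 in croton oil against untreated keratinocytes with thinned cells (H2-D1; Tap2 in microneedle keratinocytes, at 0.77, was then under the minimum level and not counted), and 1 in croton oil against untreated LCs with unclassed Ccr7 and Fscn1 cells added. The counts lower in keratinocytes, 7 and 6, became 3 and 3 with a minimum of 50 CPM, where fewer members were compared, and 4 and 4 in basal-keratin cells. The cause of the other shifts was not tested. In LCs H2-M2 ranged from -1.32 to -1.12 after croton oil and from -1.17 to -1.12 after microneedling, and H2-M5 from -1.84 to -1.61 and from -1.64 to -1.52. In keratinocytes B2m ranged from -1.33 to -1.01 after croton oil and H2-T23 from -2.08 to -1.44. H2-K1 after croton oil ranged from -0.12 to 0.32 in LCs, a call in no setting. Keratinocytes and immune cells, with 91 to 366 cells, were limited by cell number more than LCs.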
